A study of Homo sapiens with 24 samples.

Results

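Cholesterol is built from acetyl-CoA in a long chain of enzymes, first through mevalonate to farnesyl diphosphate and then, from squalene on, through lanosterol to the finished sterol. Transcription of the pathway is set by SREBP2 and SREBP1 (genes SREBF2 and SREBF1), membrane-bound factors that SCAP escorts to the Golgi for cleavage when sterols are low and that INSIG1 and INSIG2 hold back when sterols are high. When sterols are plentiful, the oxysterol receptors LXRα and LXRβ (NR1H3 and NR1H2) switch on export through ABCA1 and ABCG1 and the degradation of lipoprotein receptors by MYLIP. The 34 genes described here cover these steps, together with 4 genes of fatty acid synthesis and 2 of sterol transport. They were chosen by name, and the choice was made with their change after dTAG-13 in view (SC5D and FDFT1 higher, ABCG1 lower), so that change is given below as a description, and calls past a threshold are counted beside the share of all genes and support nothing. All 34 were among the 60605 identifiers of the count table, and all 34 were among the 22326 genes with enough reads to be fitted.

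Transcription was measured by PRO-seq, a run-on assay that labels RNA still held by engaged polymerase, in T47D cells, an established luminal breast cancer line. In each of 3 clones, Clone 28, Clone 35 and Clone 39, the genome had been edited so that only TRPS1 fused to the dTAG degron was made, TRPS1 being a zinc finger repressor of the GATA family. Cells received DMSO at 0.1% or 100 nM dTAG-13, which brings the degron to the cereblon ubiquitin ligase, for 90 minutes, with 4 replicates in each of the 6 groups and 24 libraries in all. Each clone is a single line, both arms of every comparison carried the degron, and cells without it were not analysed here, so an effect of the compound itself cannot be told apart from an effect of losing TRPS1. Replicates of a number were treated and collected together and different numbers at other times of the same day, which gives 12 pairs of a DMSO and a dTAG-13 library.

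Library totals ran from 3226718 to 9575803 reads in genes, with a median of 5042122. The 6 luminal breast markers checked were all transcribed, the lowest at a mean of 105.7 CPM. The 6 markers of other cell types had means of at most 12.1 CPM, and 2 of them stayed under 10 counts in every library. CPM are the reads of a gene scaled to the total of its library, after that total was adjusted by a TMM scaling factor. They are relative to the other genes of a library, so a change shared by all genes would not show, and fewer cells of a kind and less RNA per cell cannot be told apart.

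The promoters that carry most of the description below are printed first. RefSeq promoter windows (GRCh38.p14, 250 bases before to 50 after each start) were found for 29 of the 34 genes and searched on both strands for 5 motifs. Shown are 150 bases before the start of HMGCS1 and MSMO1, which had the highest log2 fold changes with dTAG-13 and were added after their values were seen, of SC5D, which the rule names, and of SREBF2, the only gene with the sterol regulatory element searched. They lie at chr5:43313513-43313662 (minus strand), chr4:165327517-165327666 (plus strand), chr11:121292531-121292680 (plus strand) and chr22:41832955-41833104 (plus strand), upstream of the first exon. Capitals mark CCAAT (the NF-Y box, ATTGG on the other strand), GGGCGG (the Sp1 box, CCGCCC on the other strand), CACGTG (an E-box) and TCACNCCAC (the sterol regulatory element).
HMGCS1: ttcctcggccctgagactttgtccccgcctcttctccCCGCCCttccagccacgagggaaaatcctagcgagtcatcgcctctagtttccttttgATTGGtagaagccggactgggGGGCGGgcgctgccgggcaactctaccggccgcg
MSMO1: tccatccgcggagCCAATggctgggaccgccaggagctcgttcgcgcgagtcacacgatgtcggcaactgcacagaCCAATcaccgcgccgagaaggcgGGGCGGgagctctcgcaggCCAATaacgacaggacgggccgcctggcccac
SC5D: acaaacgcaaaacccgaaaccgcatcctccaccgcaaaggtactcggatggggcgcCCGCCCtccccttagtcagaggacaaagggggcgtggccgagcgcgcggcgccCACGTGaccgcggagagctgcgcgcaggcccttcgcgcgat
SREBF2: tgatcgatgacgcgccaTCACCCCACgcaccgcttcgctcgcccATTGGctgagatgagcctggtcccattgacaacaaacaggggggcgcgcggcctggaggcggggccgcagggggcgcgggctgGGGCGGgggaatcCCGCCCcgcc

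CCAAT was held by 21 of the 29 genes, against 39.7% of all genes in the promoter table, and GGGCGG by 28 of 29, against 48.3%. The promoter table was not limited to genes with enough reads to be fitted, as these were, and no matched set was compared. The sterol regulatory element was held by 1 of 29 (SREBF2) against 1.39% of genes, so its strict form was missing from these windows of the other 28. The E-box CACGTG was held by 5 of 29, ABCA1, INSIG1, LSS, SC5D and SCAP, against 8.77%. AGATAA, one form of the GATA motif, was held by CYP51A1 and FDPS, 2 of 29, against 12.4% of genes. In SREBF2 the sterol regulatory element and a CCAAT box on the minus strand stand close to each other, and in MSMO1 the 3 CCAAT boxes surround the GGGCGG box. The letters describe the sequence and no factor's binding was measured here.

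Nascent transcription of the genes spanned a wide range. Per kilobase of gene and averaged over the 24 libraries, the highest level was that of TM7SF2, a sterol reductase, at 19.1 CPM per kb, but VPS51 overlaps it on the same strand and the counts cannot be divided between them. IDI1 (7.94), SC5D (6.52), SCD (6.51) and FDPS (5.72 CPM per kb) came next, and the ranges of these 4 over the libraries overlapped. HMGCS1, which makes HMG-CoA, stood at 3.12 and SREBF1 and SREBF2 at 2.45 and 1.49 CPM per kb. The export pumps were at the bottom of the order, ABCG1 at 0.255 and ABCA1 at 0.0367 CPM per kb, and ABCA1 had only 11 to 60 reads in a library. Of the 34 genes, 19 overlapped a gene on the other strand, among them CYP51A1 with AKAP9, MVK with MMAB and SREBF1 with RAI1. The strand setting of the counting is not given in the sources used here, so reads of such partners may be mixed.

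With dTAG-13, the estimates for the enzymes of the cholesterol pathway lay above 0 and those for the LXR axis and efflux below it. The log2 fold change was above 0 for all 18 enzymes from ACAT2 to DHCR7, with a median of 0.11 (17 of 18 with library totals only or with no filter on low counts), while 49.1% of all genes tested were above 0 and their median was -0.0017. Genes within the length range of the enzymes, 4.54 to 49.8 kb, were above 0 in 45.4%. With 1 library left out at a time, 16 to 18 of the enzymes were above 0, with 16, 18 and 15 without Clones 28, 35 and 39. In the model of clone and treatment, 2 of the 34 genes passed an adjusted p of 0.1 as higher, HMGCS1 and SC5D, beside 0.358% of all genes tested, and 1 as lower, ABCG1, beside 0.193%. When single libraries were dropped in turn, ABCG1 missed the threshold in 16 of 24 fits, and it did so at a threshold of 0.05 and without any 1 of the clones. With a term for each of the 12 pairs, 9 passed as higher beside 1.4% of all genes and again 1 as lower beside 0.932%. The 9 were HMGCS1, MVK, FDFT1, LSS, MSMO1, HSD17B7, SC5D, INSIG1 and SCD. Because the genes were chosen with this contrast in view, nothing is read from these counts.

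**Figure D1:**
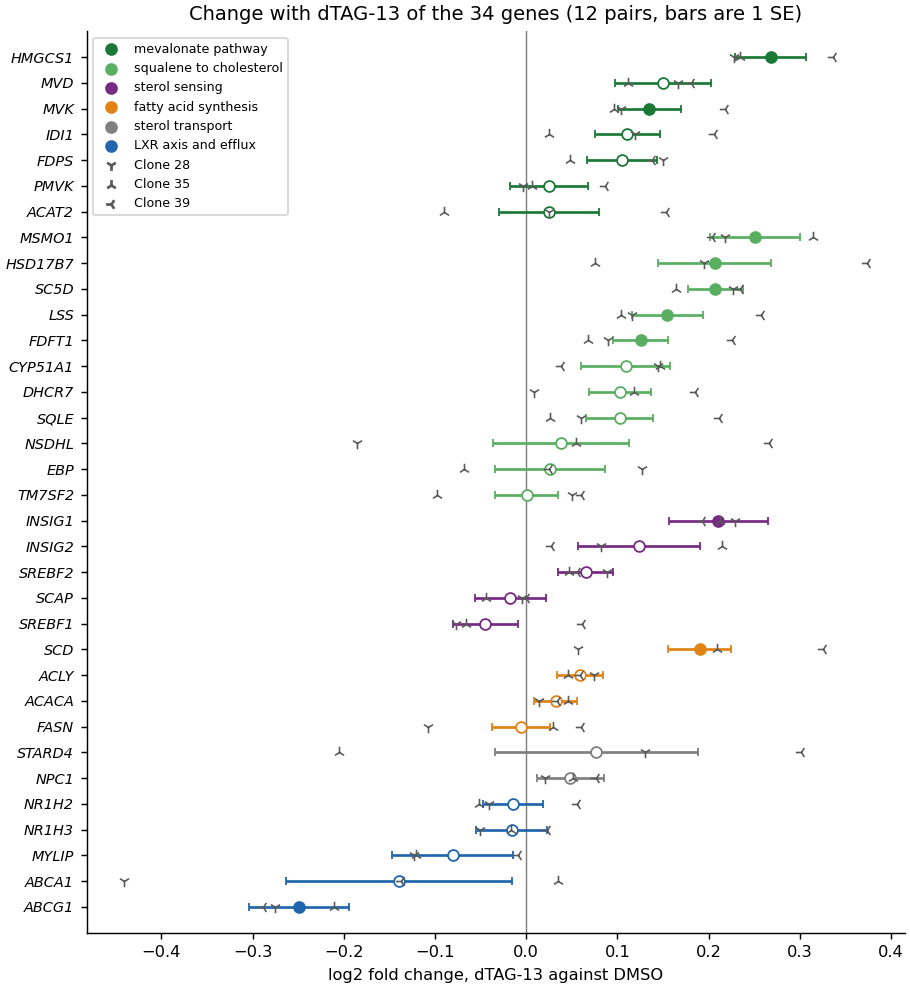
Log2 fold change of nascent reads, dTAG-13 against DMSO, for the 34 genes, coloured by role and ordered within it. Circles with bars are the estimate and 1 SE over the 12 pairs, filled where the adjusted p with the pairs as a block was under 0.1, and the small three-armed marks are Clones 28, 35 and 39; the green circles of all 18 enzymes lie above 0 (17 of 18 with library totals only) and the blue ones of the LXR axis and efflux below it.

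HMGCS1 (chr5:43287470-43313512, minus strand), the synthase one step before mevalonate formation, changed the most among the 34. In Clone 28 it read 54.8, 66.8, 64.9 and 59.7 CPM in DMSO replicates 1 to 4 and 69.5, 71.2, 67.3 and 80.9 CPM in dTAG-13. In Clone 35 the values were 63.7, 66.0, 57.0 and 76.9 CPM in DMSO and 71.5, 71.7, 82.1 and 84.2 CPM in dTAG-13. In Clone 39 they were 93.7, 92.8, 88.7 and 96.6 CPM in DMSO and 109.8, 134.7, 115.3 and 110.5 CPM in dTAG-13. All 4 treated libraries were above all 4 DMSO libraries in Clones 28 and 39, the groups overlapped in Clone 35, and the dTAG-13 library was the higher in 12 of 12 pairs. The log2 fold change was 0.27 ± 0.047 (SE), with 0.23, 0.23 and 0.34 in Clones 28, 35 and 39.

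SC5D (chr11:121292681-121313410, plus strand), the desaturase that makes 7-dehydrocholesterol, was higher in 12 of 12 pairs as well. Clone 28 went from 124, 125, 123 and 127 CPM in DMSO to 135, 149, 138 and 163 CPM in dTAG-13. Clone 35 went from 129, 137, 122 and 131 to 140, 147, 146 and 147 CPM, and Clone 39 from 133, 122, 108 and 125 to 142, 156, 141 and 136 CPM. The treated and DMSO libraries did not overlap in any of the 3 clones. The log2 fold change was 0.21 ± 0.036 (SE).

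FDFT1 (chr8:11795573-11839395, plus strand), squalene synthase, which commits farnesyl diphosphate to sterols, had a smaller difference of 0.13 ± 0.038 (SE) and was higher in 11 of 12 pairs. Its DMSO values were 108, 111, 107 and 129 CPM in Clone 28, 106, 108, 113 and 121 CPM in Clone 35, and 102, 98.4, 105 and 106 CPM in Clone 39. With dTAG-13 they were 115, 124, 120 and 126 CPM, 110, 116, 120 and 125 CPM, and 113, 117, 118 and 132 CPM. The 2 treatments were apart in Clone 39 and overlapped in Clones 28 and 35.

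Of the other enzymes, MSMO1, the sterol C4-methyl oxidase, had a log2 fold change of 0.25 ± 0.070 (SE) and was higher in 11 of 12 pairs. HSD17B7, which acts in the same demethylation, followed at 0.21 ± 0.082. LSS, which folds oxidosqualene into lanosterol, stood at 0.16 ± 0.064, MVD at 0.15 ± 0.087 and MVK, mevalonate kinase, at 0.14 ± 0.079. IDI1, FDPS, CYP51A1, DHCR7 and SQLE, squalene epoxidase, lay between 0.10 and 0.11. NSDHL, PMVK, EBP, ACAT2 and TM7SF2 stood at 0.04 or less, between 0.0019 and 0.040, each smaller than its standard error. SQLE read 46.4, 52.2, 51.3 and 62.6 CPM in DMSO and 46.2, 57.2, 50.8 and 67.6 CPM in dTAG-13 in Clone 28, so its groups overlapped there, as they did in Clone 35 (38.8 to 60.7 against 41.0 to 60.1 CPM) and Clone 39 (69.1 to 88.9 against 76.7 to 103 CPM).

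Among the sterol sensors, INSIG1, the retention protein that is itself a target of SREBP, had the largest difference. It was higher in 12 of 12 pairs, with a log2 fold change of 0.21 ± 0.079 (SE). Its DMSO values were 27.2, 29.5, 31.8 and 29.2 CPM in Clone 28, 19.6, 23.3, 30.3 and 34.3 CPM in Clone 35, and 25.5, 25.6, 26.5 and 33.3 CPM in Clone 39. The dTAG-13 values were 29.4, 32.7, 33.5 and 42.3 CPM, 25.6, 32.4, 32.9 and 35 CPM, and 26.5, 37.6, 28.2 and 34.5 CPM, overlapping DMSO in every clone although each pair was higher. SREBF2 stood at 0.06 ± 0.037, SREBF1 at -0.04 ± 0.049 and SCAP at -0.02 ± 0.038, with 8, 6 and 6 of 12 pairs higher. INSIG2 was at 0.11 ± 0.073.

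SREBF2 read 105, 102, 97.8 and 116 CPM in DMSO and 107, 117, 110 and 115 CPM in dTAG-13 in Clone 28. Over Clones 35 and 39 its DMSO values lay between 100.4 and 118 CPM and its dTAG-13 values between 104 and 124 CPM. No clone separated the treatments for SREBF2. SREBF1 read 73.1, 82.2, 80.3 and 82.3 CPM in DMSO and 64.7, 72.4, 81.0 and 82.6 CPM in dTAG-13 in Clone 28, and the treatments overlapped in Clones 35 and 39 too.

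**Figure D2:**
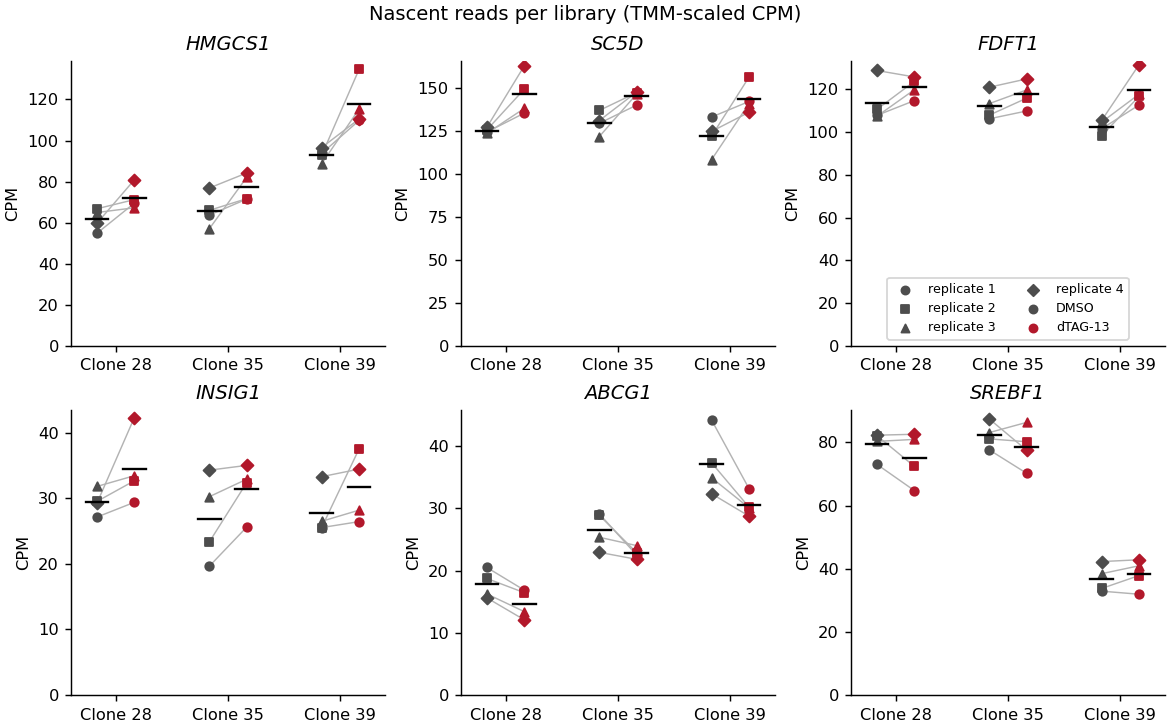
Nascent reads in each library, as TMM-scaled CPM, for 6 genes in Clones 28, 35 and 39; grey is DMSO, red is dTAG-13, the marker shape is the replicate number, grey lines join a pair and black bars are means of 4. In 12 of 12 pairs the red point lies above the grey one for HMGCS1, SC5D and INSIG1, in 0 of 12 for ABCG1, and SREBF1 is lower in all libraries of Clone 39.

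The genes of fatty acid synthesis split. SCD, the stearoyl-CoA desaturase, had a log2 fold change of 0.19 ± 0.071 (SE) and was higher in 10 of 12 pairs, with 0.06 in Clone 28, 0.21 in Clone 35 and 0.33 in Clone 39. In Clone 39 SCD went from 82.2, 92.8, 90.4 and 87.3 CPM to 95.0, 120, 117 and 110 CPM, without overlap. In Clone 28 it read 96.5, 129, 117 and 141 CPM against 102, 126, 130 and 145 CPM, and in Clone 35 100.4, 116, 119 and 113 CPM against 98.8, 142, 135 and 143 CPM, with overlap in each. FASN, fatty acid synthase, was at -0.01 ± 0.040, ACACA at 0.03 ± 0.039 and ACLY, which supplies cytosolic acetyl-CoA, at 0.06 ± 0.039. FASN read 97.0, 95.9, 103 and 107 CPM in DMSO and 83.5, 91.9, 98.9 and 99.2 CPM in dTAG-13 in Clone 28, and in Clones 35 and 39 both treatments lay between 91.9 and 117 CPM and overlapped. STARD4 and NPC1, which carry sterols inside the cell, were at 0.07 ± 0.12 and 0.05 ± 0.040.

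ABCG1 (chr21:42199689-42297244, plus strand), a pump that passes sterols to lipoprotein particles, was lower with dTAG-13 in 12 of 12 pairs. Clone 28 went from 20.5, 18.7, 16.2 and 15.6 CPM to 16.8, 16.4, 13.4 and 12.1 CPM. Clone 35 read 29.1, 28.9, 25.3 and 22.9 CPM in DMSO and 22.5, 22.9, 24 and 21.8 CPM in dTAG-13, and Clone 39 read 44.2, 37.3, 34.9 and 32.3 CPM and 33.1, 30.2, 30.1 and 28.7 CPM. The groups overlapped in every clone, while each pair was lower. The log2 fold change was -0.26 ± 0.065 (SE), and -0.28, -0.21 and -0.29 in Clones 28, 35 and 39. All 5 genes of the LXR axis and efflux had estimates below 0 over the 3 clones, with a median of -0.09. Clone by clone, 0, 1 and 2 of the 5 were above 0 in Clones 28, 35 and 39. ABCA1 was at -0.15 ± 0.16 and MYLIP at -0.09 ± 0.059, each within 1.5 standard errors of 0, and the receptors NR1H3 and NR1H2 were at -0.02 ± 0.044 and -0.01 ± 0.041. ABCA1 lay between 2.56 and 9.12 CPM in DMSO and between 2.18 and 9.20 CPM in dTAG-13.

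The calls differed with the clone left out, on the contrast that chose the genes. Without Clone 28 none of the 34 genes passed, and over all genes 1 passed, or 0.00448%. An unadjusted p under 0.05 in edgeR was found for 8 of the 34, but the share of all genes at that p was not counted. The log2 fold change without Clone 28 was then 0.29 for HMGCS1, 0.20 for SC5D and -0.25 for ABCG1. Without Clone 39 only SC5D passed (1 of 34), with HMGCS1 at 0.23 and ABCG1 at -0.24, beside 0.211% of all genes. Without Clone 35 HMGCS1 and SC5D passed beside 0.184% of all genes, and ABCG1 stood at -0.28. With the pairs as a block 8, 10 and 5 of 34 passed without Clones 28, 35 and 39, beside 0.784%, 1.61% and 1.69% of all genes.

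The enzymes were above 0 in every clone as a group, though not gene by gene. In Clone 39 18 of 18 were above 0 with a median of 0.21, in Clone 28 16 of 18 with a median of 0.12, and in Clone 35 15 of 18 with a median of 0.07. Pair by pair, between 11 and 17 of the 18 enzymes were higher with dTAG-13, and the pair median lay between 0.029 and 0.20, above 0 in each of the 12 pairs. The median over all genes in a pair stayed between -0.013 and 0.0061. The genes were chosen with this contrast in view, so these counts and medians are a description and support nothing. Whether the change differed between clones was tested with the interaction in edgeR, and 0 of 34 genes passed beside 0% of all genes, with none at an unadjusted p under 0.05. With the pairs as a block 0 passed beside 0.00448%, and 2, SCD and NSDHL, had an unadjusted p under 0.05 in edgeR. The size of the change in Clone 39 is therefore not shown to differ from that in the other clones.

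Treatment by replicate number was tested likewise, and 0 of 34 passed in edgeR beside 2.1% of all genes. On simulated data this fit made more false calls than its threshold allows. FDPS (adjusted p = 0.169) and NR1H3 (adjusted p = 0.303) were the 2 genes with an unadjusted p under 0.05 in edgeR. Of the 18 enzymes, 16, 17, 12 and 15 were above 0 in replicates 1, 2, 3 and 4.

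A further 34 genes of sterol and lipid metabolism were listed to set beside them: other sterol and isoprenoid enzymes, the SREBP proteases and regulators, acyl-CoA synthetases, desaturases, elongases and triglyceride enzymes, and LXR partners and targets. This list too was drawn up with earlier results of these data known. With dTAG-13 1 of the 34 passed as higher, beside 0.358% of all genes tested, and 0 as lower, beside 0.193%. In edgeR 5 had an unadjusted p under 0.05, for which the share of all genes was not counted. The median log2 fold change of the 34 was 0.03. The gene that passed was LPIN1, a phosphatidate phosphatase that makes diacylglycerol, at 0.24 ± 0.056 (SE), edgeR adjusted p = 0.0438, higher in 11 of 12 pairs. It read 44.7, 41.6, 36.3 and 46.6 CPM in DMSO and 54.8, 50.8, 50.9 and 54.4 CPM in dTAG-13 in Clone 28, without overlap. In Clone 35 LPIN1 read 41.2, 41.8, 48.5 and 51.9 against 42.5, 56.5, 56.4 and 63.3 CPM, and in Clone 39 41.8, 37.3, 35.4 and 40.1 against 40.3, 44.2, 40.9 and 46.7 CPM, with overlap in both. LPIN1 failed the threshold when any 1 clone was left out, at adjusted p of 0.981, 0.191 and 0.133 without Clones 28, 35 and 39 and log2 fold changes of 0.21, 0.24 and 0.28. With the pairs as a block its adjusted p was 0.000153, and ACSS2, which makes acetyl-CoA from acetate, passed too, at 0.12 ± 0.035 (SE) with adjusted p = 0.0606. That made 2 of the 34 higher with the block, beside 1.4% of all genes, and 0 lower, beside 0.932%. The LXR partners and targets gave 5 of 6 estimates below 0, the lowest -0.19 for LPCAT3, and none passed.

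The clones themselves differed in DMSO, a comparison that the choice of the genes did not use. By edgeR's test over the 3 clones, 12 of 34 genes differed, beside 28.5% of all genes tested, so the share among the 34 was near the background. Between Clones 35 and 28 only ABCG1 passed, 1 of 34 beside 5.25% of all genes. Between Clones 39 and 28 13 of 34 passed beside 26.7%, 9 of them higher in Clone 39 and 4 lower, and between Clones 39 and 35 9 passed beside 22.6%. With replicate number as a block, 17 of 34 differed between clones, MVK, FDFT1, MVD, ACLY and STARD4 joining the 12, beside 39.7% of all genes under the same block.

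**Figure D3:**
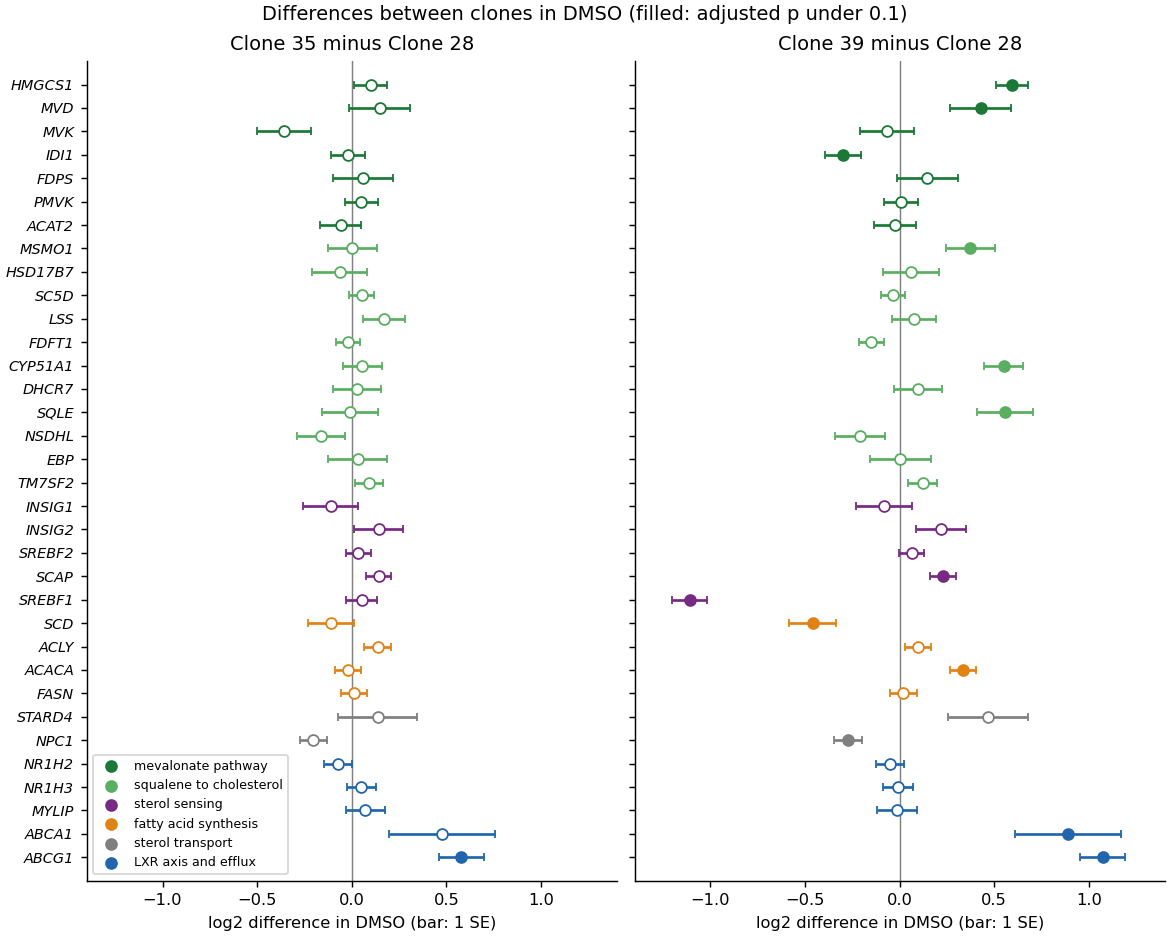
Log2 difference in DMSO of Clone 35 (left) and Clone 39 (right) from Clone 28 for the 34 genes, coloured by role, with bars of 1 SE and filled circles where the edgeR adjusted p was under 0.1. On the left only ABCG1 is filled; on the right 13 are, from SREBF1 at -1.11 to ABCG1 at 1.07.

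The largest differences were those of SREBF1 and ABCG1. SREBF1 (chr17:17810399-17837002, minus strand) read 79.5 ± 4.4 CPM (SD, n = 4) in Clone 28 and 82.3 ± 4.1 in Clone 35 but 36.8 ± 4.4 in Clone 39, with no overlap. The log2 difference of Clone 39 from Clone 28 was -1.11 ± 0.092 (SE, edgeR adjusted p = 1.77e-11). ABCG1 stood at 17.8 ± 2.3 CPM in Clone 28, at 26.6 ± 3.0 in Clone 35 and at 37.2 ± 5.1 in Clone 39, and none of these 3 groups overlapped. Its log2 difference was 0.58 for Clone 35 (edgeR adjusted p = 0.00226) and 1.07 ± 0.12 for Clone 39 (edgeR adjusted p = 9.7e-09) against Clone 28.

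Clone 39 had more nascent transcription of 5 of the 18 cholesterol enzymes than Clone 28 and less of 1, a share near the 26.7% of all genes that differed between these clones. HMGCS1 stood at 92.9 ± 3.2 CPM (SD, n = 4) against 61.5 ± 5.4 in Clone 28 and 65.9 ± 8.3 in Clone 35, a log2 difference of 0.59 from Clone 28 (edgeR adjusted p = 1.8e-06). SQLE was at 78.7 ± 8.1 CPM against 53.1 ± 6.8 and 52.4 ± 9.7, a difference of 0.56 (edgeR adjusted p = 0.00836). CYP51A1, lanosterol demethylase, was at 44.3 ± 2.9 CPM against 30.1 ± 4.1 and 31.5 ± 3.8, a difference of 0.55 (edgeR adjusted p = 0.000103). For each of these 3 genes every Clone 39 library was above every library of the other clones. MSMO1 (0.37, adjusted p = 0.0382) and MVD (0.43, adjusted p = 0.0638) were also higher in edgeR's test. IDI1, isopentenyl diphosphate isomerase, was lower, at 66.4 ± 7.9 CPM against 81.5 ± 6.8, a difference of -0.30 (edgeR adjusted p = 0.0198).

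Outside the enzymes, ACACA, the acetyl-CoA carboxylase that opens fatty acid synthesis, read 484, 520, 455 and 453 CPM in Clone 39 against 372, 424, 353 and 367 in Clone 28 and 374, 420, 354 and 346 in Clone 35. The difference between Clones 39 and 28 was 0.33 (edgeR adjusted p = 0.0005). SCD went the other way, at 88.1 ± 4.6 CPM against 121 ± 19 in Clone 28, a difference of -0.46 (adjusted p = 0.00861). NPC1 was lower by edgeR (-0.27, adjusted p = 0.00569) and SCAP higher (0.23, adjusted p = 0.0147). ABCA1, with few reads, was at 7.28 ± 2.0 CPM against 4.06 ± 1.7, a difference of 0.89 ± 0.28 (SE, edgeR adjusted p = 0.0202), and the groups overlapped. SREBF2, at 0.06, and SC5D, at -0.03, did not pass, nor did FDFT1 (-0.15) or FASN (0.02).

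Neighbouring genes moved with some of these differences and not with others. Of the 38 genes tested within 1 Mb of SREBF1 and not overlapping it, 36 were lower in Clone 39 than in Clone 28. Of these, 32 passed as lower, and the median log2 difference of the 38 was -0.78. Around IDI1 all 11 neighbours were lower, 9 of them past the threshold, with a median of -0.31 beside -0.30 for IDI1 itself. Around CYP51A1 9 of 21 neighbours shared its direction and their median was -0.01, around ACACA 16 of 25 with a median of 0.05, and around SCD 21 of 38 with a median of -0.02. ABCG1 had 21 of 27 neighbours higher, 9 past the threshold, with a median of 0.10. HMGCS1 had 15 of 19 higher, 7 past the threshold, with a median of 0.19. SQLE had 14 of 19 higher, 6 past the threshold, with a median of 0.13. Of all genes tested, 26.7% passed between these clones in either direction. SREBF1 and IDI1 thus moved with most of their neighbours. Around ABCG1, HMGCS1 and SQLE most neighbours shared the direction too, with medians below the gene's own value. Most single neighbours of HMGCS1 and ABCG1 also lay below the gene. Above HMGCS1 lay CCL28 (1.89), NNT (1.18) and NNT-AS1 (0.79). Above ABCG1 lay TMPRSS3 (2.08), MX1 (2.07), LINC01671 (1.55), TFF1 (1.34) and BACE2 (1.21). The part of the neighbourhood in any of these differences was not tested.

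**Figure D4:**
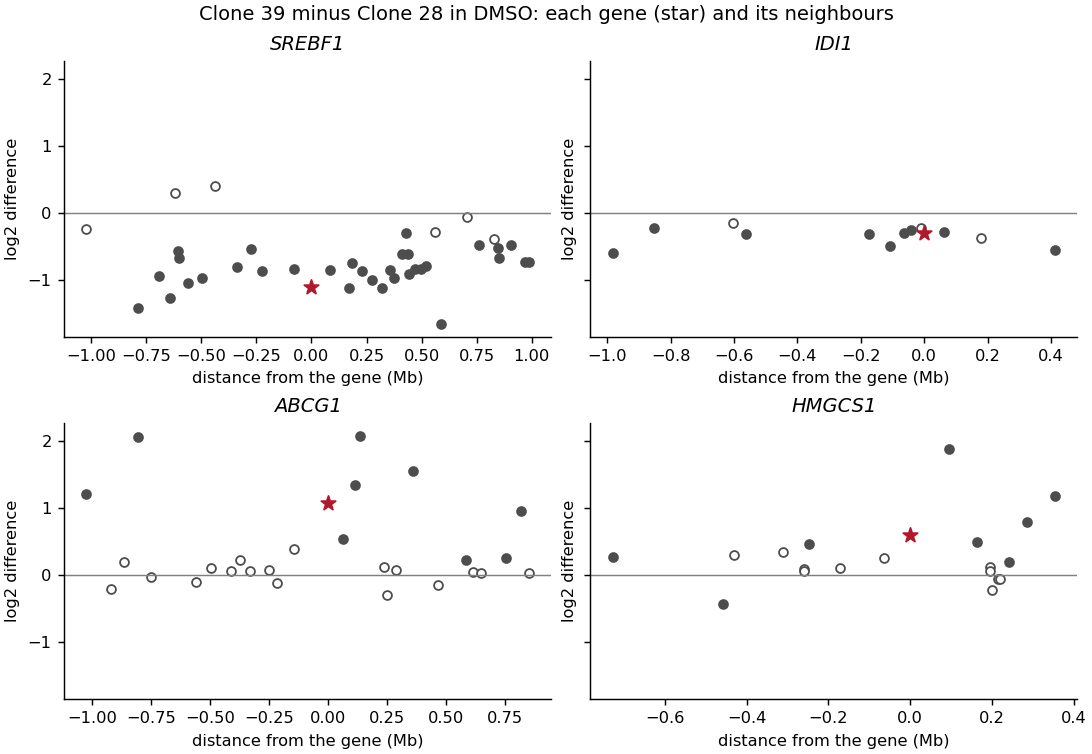
Log2 difference between Clones 39 and 28 in DMSO for 4 genes (red star) and the genes tested within 1 Mb (circles, filled where the edgeR adjusted p was under 0.1), against distance between gene centres in Mb. Of the neighbours that do not overlap the gene, 36 of 38 for SREBF1 and 11 of 11 for IDI1 lie below 0 with the gene itself. The circles also include RAI1 (-0.84), which overlaps SREBF1, and IDI2-AS1 (-0.23), which overlaps IDI1. Above 0 with the gene lie 21 of 27 for ABCG1 and 15 of 19 for HMGCS1, most of them nearer 0 than the gene.

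Replicate number was a second source of difference that the choice of the genes did not use. By edgeR's test over the 4 numbers, 21 of 34 genes differed beside 37.2% of all genes tested. In the contrast of replicates 3 and 4 against 1 and 2, 17 of 34 were higher beside 20.7% of all genes and 4 were lower beside 20.1%. This contrast was chosen with earlier results of these data known, so its calls and p-values, here and below, are a description. Of the 18 enzymes, 17 had an estimate above 0, with a median of 0.14, and 12 passed as higher and 0 as lower. The exception was SC5D, at -0.03 ± 0.030 (SE), and with library totals only or with no filter on low counts all 18 were above 0.

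Over the whole table this contrast differed by gene length, and the enzymes are short genes. Among all genes of 4.54 to 49.8 kb, the range of the enzymes, 28% passed as higher and 10.4% as lower, 62.5% were above 0 and the median was 0.05. Among genes over 100 kb, 6.2% passed as higher and 40.9% as lower, with a median of -0.11. The part of length in the result for the enzymes was not tested.

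The 5 genes with the smallest p over replicate numbers were FDPS, MVK, DHCR7, SCD and ACACA. FDPS, farnesyl diphosphate synthase, averaged 54.4, 69.0, 73.6 and 75.7 CPM over the 6 libraries of replicates 1, 2, 3 and 4 (edgeR adjusted p = 2.24e-10). The lowest library of each of the 6 groups was replicate 1, at 49.9, 58.9 and 60.4 CPM in DMSO and 53.1, 47 and 57.1 CPM in dTAG-13. MVK averaged 60.8, 73.1, 77.9 and 83.1 CPM (adjusted p = 4.64e-10) and DHCR7, the reductase that ends the pathway, 68.5, 83.3, 81.5 and 91.5 CPM (adjusted p = 3.18e-09), both from edgeR. SCD averaged 95.7, 121, 118 and 123 CPM (edgeR adjusted p = 2.87e-08). Replicate 1 was thus the lowest of the 4 numbers for each of these 4 genes.

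ACACA, which is 322 kb long, behaved differently, at 405, 458, 400 and 396 CPM (edgeR adjusted p = 9.05e-08), so that its high value was replicate 2. EBP, a sterol isomerase gene 6.92 kb long, had the largest difference of replicates 3 and 4 from 1 and 2 among the enzymes, at 0.39 ± 0.060 (SE, edgeR adjusted p = 4.47e-07). MVD stood at 0.29 ± 0.053 and HSD17B7 at 0.26 ± 0.061, each with the mean of replicates 3 and 4 above the mean of 1 and 2 in 6 of 6 groups. INSIG1 (0.24 ± 0.055) and SREBF1 (0.17 ± 0.035) were higher too. ABCG1 was lower by number, at 27.7, 25.7, 24 and 22.2 CPM for replicates 1 to 4, a difference of 3 and 4 from 1 and 2 of -0.21 ± 0.055 (SE, edgeR adjusted p = 0.00217), and ABCA1 stood at -0.36 ± 0.13 (SE, edgeR adjusted p = 0.0226). SC5D and HMGCS1, at 134, 139, 130 and 138 CPM and at 77.2, 83.9, 79.2 and 84.8 CPM, did not pass the test over numbers.

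**Figure D5:**
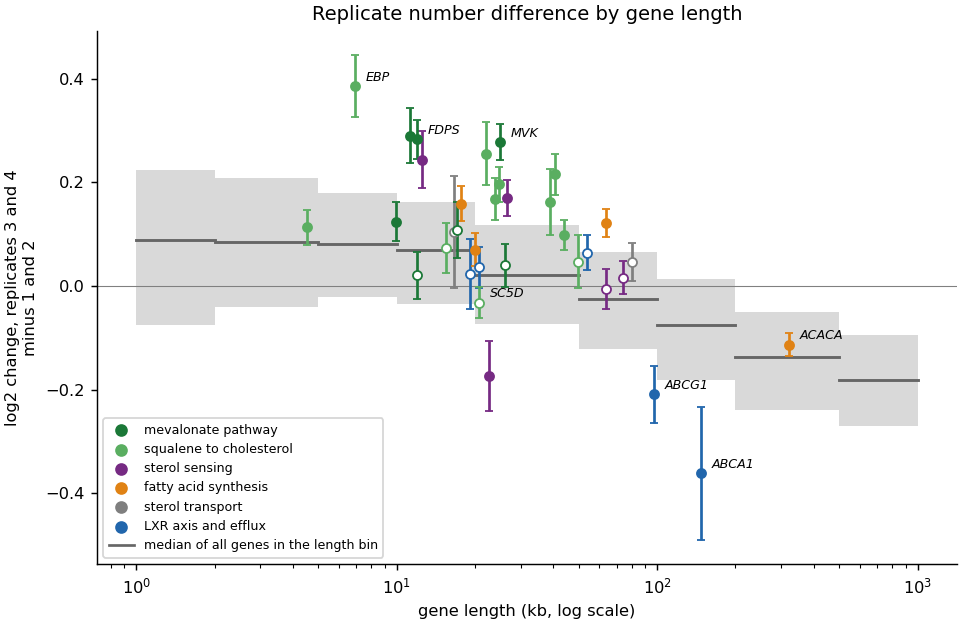
Log2 difference of replicates 3 and 4 from replicates 1 and 2 against gene length in kb (log scale) for the 34 genes, with bars of 1 SE and filled circles where the edgeR adjusted p was under 0.1. Grey bands span the quartiles and dark lines the medians of all tested genes in each length bin; the band falls with length, and 17 of 18 enzymes (green) lie above 0, SC5D excepted (18 of 18 with library totals only).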

How the data were processed

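The authors trimmed PRO-seq reads with cutadapt 1.8.1, removed duplicates by UMI, removed ribosomal reads, aligned with Bowtie2 2.4.4 to hg38 (SAMtools 1.9, versions from the submitters' processing notes) and counted reads per gene with bedtools. The annotation and strand setting are not given in the sources used here. The deposited values are counts without normalization.

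The counts were analysed with edgeR 4.0.16 in R 4.3.3 by the quasi-likelihood test with TMM scaling and robust fits. Genes were kept by filterByExpr with a minimum count of 10 (22326 of 60605), and p-values were adjusted over all of these genes by Benjamini-Hochberg, with a threshold of 0.1. The dTAG-13 change was fitted with clone and treatment (20 residual degrees of freedom). Clone differences and the clone interaction used the 6 groups, replicate numbers were added to these, and the interaction with number used the pairs. DESeq2 1.42.0 was an alternative. CPM values are TMM-scaled. Places and lengths come from GENCODE 44 on hg38, neighbours being genes tested within 1 Mb, counted without those that overlap the gene. Intervals cover the spread between replicates, which exceeded counting error in all 36 replicate pairs (chi-square per degree of freedom 1.65 to 13.6). Nothing states that replicates came from separate passages, so p-values measure the spread between these samples.

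Replicate numbers pair the libraries, because per the methods same-numbered treatments were collected together. The deviations of paired libraries from their group means correlated at 0.0926 to 0.318 (mean 0.185, 12 pairs).

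The 34 genes, all lists and the contrast of replicates 3 and 4 against 1 and 2 were chosen with earlier results of these data known. Every one of the 34 was accounted for. Library values were given for 11 genes named in the rule for named genes (HMGCS1, SC5D, FDFT1, INSIG1, SQLE, SREBF1, SREBF2, FASN, SCD, ABCA1, ABCG1) and for up to 5 genes with the smallest p in each test of clones and numbers. Promoters of HMGCS1 and MSMO1, and values of the other genes given in the text, were chosen after their values were seen. Simulated data were used to test the fits of clone and treatment, of the 6 groups, of groups with replicate number, and of the interaction with number. These held their false calls under the threshold except the interaction with replicate number, whose calls exceeded it. The fits with the pairs as a block for the dTAG-13 change and for the clone interaction were not tested in this way.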

Additional observations from a re-analysis of the deposited data

Results flagged for a closer look

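In 96 groups of 4 libraries (16 genes in 6 groups), 5 had a library that stood apart from the other 3 by a gap that exceeded Dixon's critical value, and chance gives about 4.8. SC5D in Clone 35 with dTAG-13 read 140 CPM in replicate 1 against 146 to 147 in the other 3. FDFT1 in Clone 28 in DMSO read 129 CPM in replicate 4 against 107 to 111. INSIG1 in Clone 39 in DMSO read 33.3 CPM in replicate 4 against 25.5 to 26.5. SCD in Clone 35 with dTAG-13 read 98.8 CPM in replicate 1 against 135 to 143, and MVK in Clone 28 in DMSO read 59.2 CPM in replicate 1 against 80.1 to 84.2.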

How the results depend on the processing

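With a replicate block, that is a term for each pair, 10 of the 34 genes passed with dTAG-13 in place of 3, and 2 of the further 34 in place of 1, and with that block and without Clones 28, 35 and 39, chosen after seeing the data, 8, 10 and 5 of the 34 passed (0.784%, 1.61% and 1.69% of all genes). The block took the clone differences from 12 to 17 genes (28.5% to 39.7% of all genes) and left the clone by treatment count at 0, with 2 at an unadjusted p under 0.05 in edgeR. Without the block, 0 of 34 passed without Clone 28 (8 at an unadjusted p under 0.05 in edgeR) and 1 without Clone 39, and of the further 34, 0 passed without Clone 28, 35 or 39 (4, 2 and 2 at an unadjusted p under 0.05). The share of all genes at that unadjusted p was not counted in any fit. For treatment by number, 1 gene passed with no filter on low counts and 1 without Clone 35, in place of 0, with 2 at an unadjusted p under 0.05 in edgeR. Leaving out 1 library at a time gave 2 to 5 genes with dTAG-13 and 0 to 1 for treatment by number. ABCG1 lost its dTAG-13 call in 16 of these 24 fits and at a threshold of 0.05. SQLE lost its difference between replicates 3 and 4 and 1 and 2 without Clone 35. HMGCS1, SC5D, FDFT1, MSMO1, INSIG1, SCD, ABCG1 and LPIN1 kept their dTAG-13 direction under every alternative run, but the enzymes above 0 with dTAG-13 numbered 15 to 18, and those above 0 in replicates 3 and 4 against 1 and 2 16 to 18, so the sign of a few small estimates changed. Causes were not tested. DESeq2, RLE size factors, library totals and the stricter filter kept every count named here within 1.5 times. A change of 0.1 on the log2 scale is near 1 to 3 standard errors for most of the genes, which depth and replicate number limit.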

Other observations

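Among the further 34 genes of sterol and lipid metabolism, 11 differed between the clones in DMSO in edgeR's test, beside 12 of the 34 genes of the report and 28.5% of all genes. Between Clones 39 and 28, 7 were higher and 2 lower, beside 26.7% of all genes in either direction. By replicate number 20 of the further 34 differed, beside 37.2% of all genes, with 16 higher (20.7% of all genes) and 5 lower (20.1%) in replicates 3 and 4 than in 1 and 2. Values of SREBF1 and of the neighbours around it stood apart between Clone 39 and both other clones, with 33 of 38 neighbours lower against Clone 35 as well.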
